A study of Homo sapiens with 6 samples.

Results

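Integrin subunit genes were described in RMS13 cells after knockdown of GLI1, the beta subunit genes ITGB3, ITGB1 and ITGB5 and the alpha subunit genes ITGAV, ITGA3, ITGA4, ITGA5, ITGA6, ITGA7 and ITGA9. These 10 members, of 25702 genes listed, were taken by symbol, and they were proposed with their siGLI1 and siNT2 values already known. Their differences between the groups are therefore given as a description, without p-values. RMS13 is an established human rhabdomyosarcoma line, a tumour cell type with features of skeletal muscle. Of its 6 libraries, 3 came from cells given a small interfering RNA (siRNA) that targets GLI1 (siGLI1), the gene of a transcription factor of the Hedgehog pathway, and 3 from cells given a non-targeting siRNA (siNT2). All were taken at 72 h. The siGLI1 and siNT2 library of each replicate number share the stem of a sample code, which differs between the numbers. The labels do not say what the stem marks or whether replicates came from separate cultures, so the spread between libraries may be technical.

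Integrins are receptors of the cell surface that bind extracellular matrix or other cells, and each is a pair of an alpha and a beta subunit. The pair decides the ligand: alpha v with beta 3 or beta 5 binds vitronectin and other proteins with an Arg-Gly-Asp motif, alpha 5 with beta 1 binds fibronectin, alpha 3, alpha 6 and alpha 7 with beta 1 bind laminins, and alpha 4 and alpha 9 with beta 1 bind, among others, VCAM1 and tenascin C. Inside the cell, talin and kindlin bind the beta tail and activate the receptor, and a plaque of adaptor proteins ties it to actin. In developing muscle, alpha 7 beta 1 is a laminin receptor of the fibre.

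The knockdown was visible in the targeted gene. GLI1 had 579.9 to 1274 normalised read counts in the siGLI1 libraries, against 11963 to 17837 in the siNT2 libraries. Recovered reads ranged from 13784642 to 15477041 per siGLI1 library and from 13673977 to 18947614 per siNT2 library. The muscle factor genes MYOD1 and MYOG had at least 11156 normalised read counts in every siGLI1 library and 9229 in every siNT2 library, whereas MYF5, MYF6 and PAX7 had at most 1.98 in siGLI1 and 1.01 in siNT2 libraries. Platelets are the best known source of beta 3, and their 7 markers were mixed. PPBP, PF4 and GP1BB were at 0 in all 6 libraries, and GP9 was at 3.24 or less in siGLI1 and 0 in siNT2 libraries. GP6 was present and was itself called lower, with 656 ± 99.2 in siGLI1 and 1315 ± 249 in siNT2 (SD, n = 3 each; adjusted p = 0.0129, limma), a call lost when siNT2 replicate 1 or siGLI1 replicate 2 was left out. GP1BA had 127 ± 37.1 in siGLI1 and 158 ± 41.7 in siNT2, and ITGA2B, the platelet partner of beta 3, had 59.6 ± 24.5 in siGLI1 and 74.7 ± 34.4 in siNT2 (SD, n = 3 each), both without a call. The platelet markers summed to 664 to 942 in siGLI1 libraries and 1346 to 1921 in siNT2 libraries. Endothelial markers, 4 of 7 of them at a mean of 10 or more, summed to 224 to 256 in siGLI1 and 149 to 157 in siNT2. PECAM1 was called higher, with 86.3 ± 4.54 in siGLI1 and 11 ± 4.71 in siNT2 (SD, n = 3 each; adjusted p = 0.00226, limma). The other endothelial markers were mixed. CLDN5 had 71.4 ± 23.9 in siGLI1 and 49.3 ± 26.9 in siNT2, and TEK 48.8 ± 13.8 and 66.4 ± 31.1 (SD, n = 3 each), both without a call. Leukocyte and osteoclast markers, 3 of 7 at such a mean, summed to 125 to 153 in siGLI1 and 102 to 126 in siNT2, and epithelial markers, 3 of 6, to 94.0 to 103 in siGLI1 and 125 to 155 in siNT2. The part of these markers in the results was not tested. In these bulk libraries, fewer cells with a transcript and less transcript per cell cannot be told apart. Libraries within a group also differed along GC content: across 14438 genes the deviation of each library from the mean of its group had a rank correlation with GC content that ran from -0.69 to 0.74 in siGLI1 and from -0.59 to 0.69 in siNT2.

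Values below are normalised read counts, that is reads per gene divided by a size factor per library. A log2 difference is the mean log2(value + 1) of siGLI1 minus that of siNT2, with 95% intervals from limma. A gene is called when its limma p-value, adjusted by Benjamini-Hochberg over all 15622 genes tested, is under 0.05.

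ITGB3 encodes the beta 3 subunit, the partner of alpha v in vitronectin receptors and of alpha IIb on platelets. It had 51.8, 39.9 and 41.5 normalised read counts in the siGLI1 libraries, against 964, 854 and 1102 in the siNT2 libraries. All 3 siGLI1 libraries lay far below the lowest siNT2 library, and within each group the libraries were close together. Means were 44.4 ± 6.49 in siGLI1 and 973 ± 124 in siNT2 (SD, n = 3 each), so that 4.56% of the siNT2 level was left, a log2 difference of -4.43 (95% interval -4.83 to -4.02). Of the 15622 genes tested, 8 had a lower value. The value stayed between -4.54 and -4.33 when any 1 library was left out and was -4.36 after a correction for GC content. It rested on 129 recovered reads in siGLI1 libraries and 3102 in siNT2 libraries, well above the floor of 3 reads per library.

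The 3′ untranslated region (UTR) of ITGB3 was annotated with 1612 bases, and it held the heptamer GCACCTC once, at bases 993 to 999. A match of this kind matters as background because an siRNA can also lower transcripts that pair with the short seed of its guide strand, as a microRNA does. The sequence of the GLI1 siRNA is not given in the sources used here. The heptamer had been picked out from these same libraries before, so the counts below describe it and are no independent support. The sites are shown for ITGB3, for the called genes SDC4, ACTN1 and GIT1, and for ILK and PARVA, which carried it and were not called. Capitals mark the heptamer. Sequences are from GENCODE release 29 transcripts, read 5′ to 3′.
ITGB3: cctcatccataGCACCTCcacatacctgg
SDC4, first site: tgttggagtgaGCACCTCctctgtaggca
SDC4, second site: ctcctctgtagGCACCTCtcacactgttg
ACTN1: tgccctgccttGCACCTCcgccgtcgccc
GIT1: ccacattccatGCACCTCccctctgtata
ILK: gttgggggaatGCACCTCcccaaagcagc
PARVA: ctagttggagcGCACCTCagagtccccta

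Among all 26 integrin subunit genes, the 10 members and 16 others, ITGB3 was the only one with the heptamer in the annotated 3′ UTR. Over all tested genes with an annotated 3′ UTR, 8.86% had it, so nothing is read from this count. None of the other 9 members had it. Their 3′ UTRs included longer ones, with 3609 bases in ITGAV and 4525 in ITGA9. Over all 13132 tested genes with an annotated 3′ UTR, 17.8% of the 1043 genes with 1 copy and 24.2% of the 120 genes with 2 or more were called lower, against 7.09% of the 11969 genes with none. Genes called higher made up 6.62%, 2.5% and 8.27% of the same classes. The 3′ UTRs also differed in length, with medians of 2595, 3962 and 1092 bases. Ranked by the gain in the share called lower, the heptamer stood at place 6 among 15910 heptamers found in 100 or more genes, and ranked by the mean log2 difference, most negative first, at place 19. Whether the heptamer had a part in the lower ITGB3 level was not tested.

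**Figure D1:**
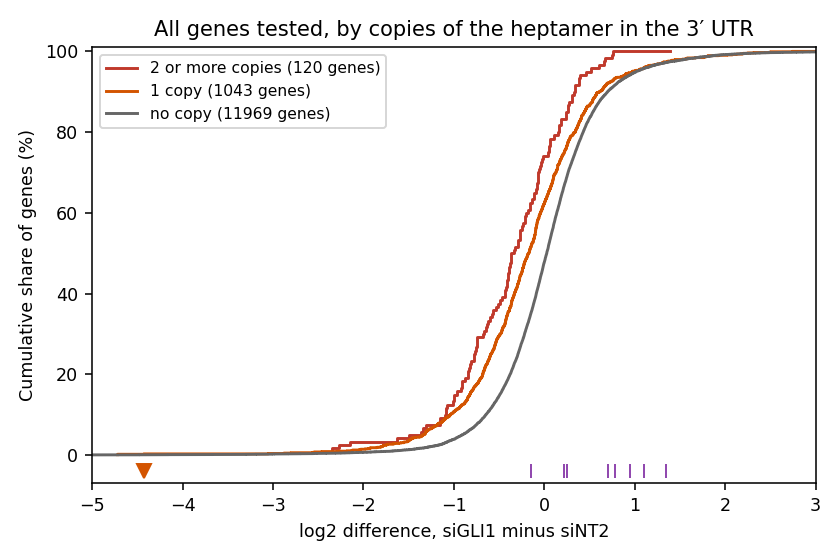
Cumulative share of genes (y axis, percent) at or below each log2 difference, siGLI1 minus siNT2 (x axis), for tested genes with 2 or more copies (red), 1 copy (orange) or no copy (grey) of GCACCTC in the 3′ UTR. The orange triangle marks ITGB3 at -4.43, and the purple ticks mark the other 8 members tested, which carry no copy and lie between -0.14 and 1.34.

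Of the 10 members, 9 had a mean of 10 or more over the 6 libraries and entered the fit. ITGB3 was called lower, ITGB5, ITGA3 and ITGA6 were called higher, and 5 were not called. Here and below, calls of members are part of the description and are no test of them. Over all genes 15.2% were called, 7.21% higher and 8% lower, and since the members were chosen on this contrast nothing is read from their share. The same 4 members were those whose groups did not overlap, 3 higher and 1 lower, as was the case for 36.2% of all genes tested, 17.4% higher and 18.8% lower. Members called higher numbered 1 without any 1 of the siNT2 replicates or without siGLI1 replicate 2, and 4 without siGLI1 replicate 3. Counts over all genes also changed with the library left out, and their range is given in the last section. Losses of calls in these fits, here and in the lists below, are therefore not read as particular to the genes named. The log2 differences stayed between 1.04 and 1.54 for ITGA3 and between 0.90 and 1.36 for ITGA6. The median log2 difference of the 9 was 0.71, against -0.01 over all genes tested.

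**Figure D2:**
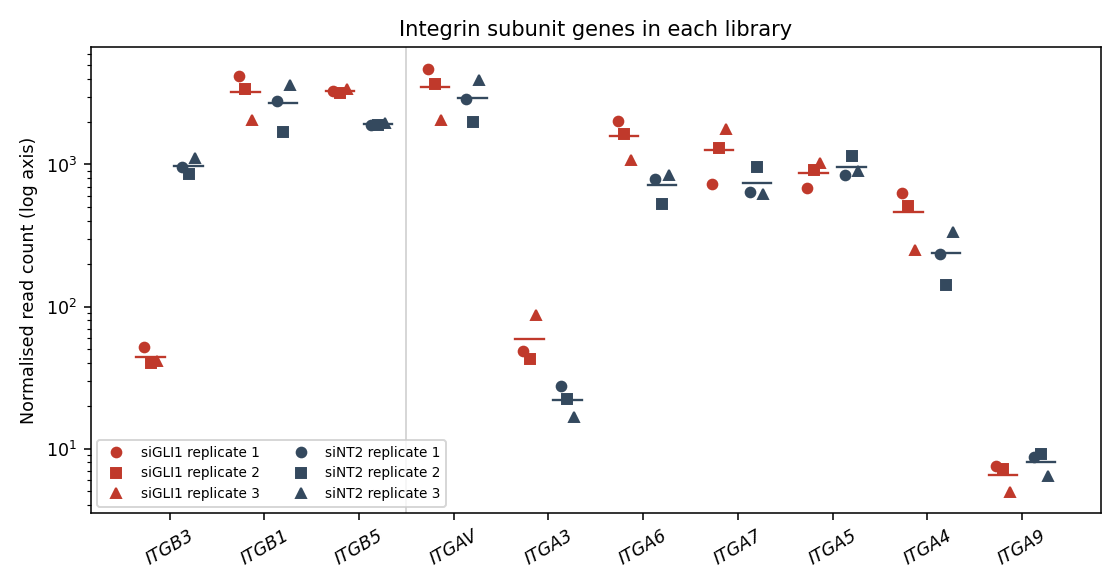
Normalised read count (y axis, log scale) of the 3 beta and 7 alpha subunit genes in each siGLI1 library (red, left of each pair) and each siNT2 library (dark, right), with lines at the group means. ITGB3 sits near 44.4 in siGLI1 and near 973 in siNT2, while ITGB5 is tightly grouped and higher in siGLI1.

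ITGB5, whose product is an alternative partner of alpha v, had 3314, 3204 and 3373 normalised read counts in siGLI1 libraries and 1912, 1901 and 1955 in siNT2 libraries. It was the steadiest of the members within groups, and every siGLI1 library was above every siNT2 library. Its means were 3297 ± 85.7 in siGLI1 and 1922 ± 28.4 in siNT2 (SD, n = 3 each), a log2 difference of 0.78 (95% interval 0.52 to 1.03). The difference lay between 0.76 and 0.80 when any 1 library was left out.

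ITGB1, the beta subunit shared by most laminin, fibronectin and collagen receptors, had 4186, 3418 and 2043 in siGLI1 libraries and 2801, 1706 and 3599.6 in siNT2 libraries. The groups overlapped, and the log2 difference of 0.25 had an interval from -0.53 to 1.04. ITGAV, the alpha v subunit itself, had 4734, 3669 and 2047 in siGLI1 libraries and 2908, 1999 and 3913 in siNT2 libraries. Its groups overlapped as well, with a log2 difference of 0.21 (95% interval -0.59 to 1.02). Both differences turned slightly negative without siNT2 replicate 2, at -0.037 for ITGAV and -0.044 for ITGB1, and that of ITGAV also without siGLI1 replicate 1, at -0.048. At this spread between libraries, changes inside those intervals were not detectable.

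The laminin-binding alpha subunits were higher or had intervals reaching 0. ITGA6, the alpha 6 subunit, had 2009.8, 1643 and 1076 in siGLI1 libraries and 788, 530.4 and 848 in siNT2 libraries, without overlap and with a log2 difference of 1.11 (95% interval 0.48 to 1.73). ITGA3, the alpha 3 subunit, was low in both groups, with 48.6, 42.9 and 86.9 in siGLI1 libraries and 27.5, 22.3 and 16.7 in siNT2 libraries. Its groups did not overlap either, with a log2 difference of 1.34 (95% interval 0.59 to 2.10). The calls of both genes were fragile. That of ITGA6 was made without siGLI1 replicate 3 and lost without any of the other 5 libraries, and that of ITGA3 was lost without any siNT2 library or without siGLI1 replicate 2. Both were also lost with a term for the replicate number. They were kept with edgeR, with DESeq2 and after the GC correction, at 1.01 for ITGA6 and 1.56 for ITGA3. With the GC correction and the replicate term together they were kept too. ITGA7, the alpha 7 subunit of muscle, had 728, 1302 and 1765 in siGLI1 libraries and 637, 968 and 624 in siNT2 libraries. Its groups overlapped, and the log2 difference of 0.71 (95% interval -0.06 to 1.47) was not called, but it was called at 0.91 after the GC correction and at 1.06 without siGLI1 replicate 1. Without siGLI1 replicate 3 it was 0.42. Part of ITGA7 overlaps the genes BLOC1S1 and TMT1B, so its reads are uncertain where the counting could not separate them.

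The remaining alpha subunits were not called in the fit to all 6 libraries. ITGA4, whose product binds VCAM1 and fibronectin, had 632, 510.1 and 249.9 in siGLI1 libraries and 233, 142 and 336 in siNT2 libraries. The lowest siGLI1 library lay inside the siNT2 range, and the log2 difference was 0.95 (95% interval -0.00093 to 1.90). It was 0.63 without siNT2 replicate 2, and it was called at 1.34 without siGLI1 replicate 3. ITGA4 overlaps CERKL, with the same limit on its reads as for ITGA7. ITGA5, the fibronectin receptor subunit, had 685, 917 and 1019 in siGLI1 libraries and 842, 1145 and 896 in siNT2 libraries, with a log2 difference of -0.14 (95% interval -0.60 to 0.31) that was 0.021 without siGLI1 replicate 1. ITGA9 stood close to the floor of 3 reads, with 7.56, 7.16 and 4.94 in siGLI1 libraries and 8.78, 9.13 and 6.38 in siNT2 libraries, and it was not tested.

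Within groups, 6 of the 9 members tested ran in an order of libraries that went with their GC content. ITGAV, ITGB1, ITGA4 and ITGA6, with GC contents of 38.3%, 40.0%, 44.1% and 42.9%, were each highest in siGLI1 replicate 1 and lowest in siGLI1 replicate 3, and each lowest in siNT2 replicate 2 and highest in siNT2 replicate 3. ITGA5 and ITGA7, with GC contents of 54.5% and 60.2%, ran the other way in siGLI1, lowest in replicate 1 and highest in replicate 3, and were highest in siNT2 replicate 2. ITGA3, with the highest GC content of the 9 members tested, 61.3%, did not share the whole order, since it was highest in siGLI1 replicate 3 but lowest in siGLI1 replicate 2, and highest in siNT2 replicate 1. The libraries had the same order along GC content, with rank correlations of -0.69, -0.31 and 0.74 for siGLI1 replicates 1, 2 and 3 and of -0.49, 0.69 and -0.59 for siNT2 replicates 1, 2 and 3. ITGA4 ranged over 1.33 log2 units within siGLI1 and 1.24 within siNT2, against 0.074 and 0.040 for ITGB5. The GC content of ITGB5, 54.3%, was close to that of ITGA5, which ranged over 0.57 and 0.44. ITGB3, at 52.3%, was highest in siGLI1 replicate 1 but lowest in siGLI1 replicate 2. In siNT2 it was lowest in replicate 2 and highest in replicate 3. The part of GC content in the spread of single members was not tested. The GC correction moved the log2 differences to 0.021 for ITGAV, 0.095 for ITGB1, 0.87 for ITGA4 and 1.01 for ITGA6.

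**Figure D3:**
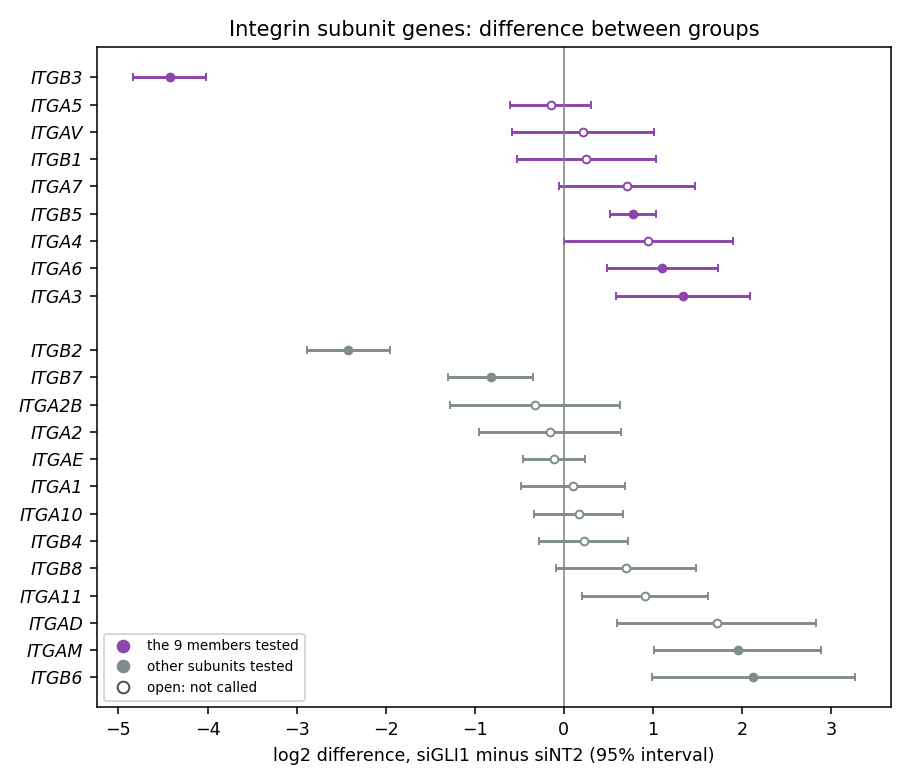
Log2 difference, siGLI1 minus siNT2, with its 95% interval (x axis) for the 9 members tested (purple) and the 13 other integrin subunit genes tested (grey); filled points were called, open points were not. ITGB3 at -4.43 and ITGB2 at -2.42 lie apart on the lower side.

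Levels of different subunits were compared per kilobase of the longest annotated transcript. By group means ITGB1 was the most abundant member, with 849.8 normalised read counts per kb in siGLI1 and 714 in siNT2, followed by ITGB5 with 754 and 439.7 and by ITGAV with 496 and 418. In siGLI1 replicate 3, however, ITGB5 at 771 was above ITGB1 at 540. ITGB3 stood at 11.1 in siGLI1 and 244 in siNT2, where its libraries overlapped with those of ITGA5 just below it (175 in siGLI1 and 192 in siNT2). ITGB5 and ITGAV overlapped in siNT2 libraries too, as did ITGA5 and ITGA7 (307 in siGLI1 and 180.3 in siNT2). ITGA6 (281 and 129), ITGA4 (111 and 56.5), ITGA3 (10.9 and 4.05) and ITGA9 (0.830 and 1.03) followed in that order, each with siNT2 libraries apart from its neighbours. Dividing by the median transcript length instead kept the siNT2 place of 4 of the 10 members. ITGB3 then stood at 584 in siNT2, below ITGA5, ITGA7 and ITGA6.

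Set against the other beta subunits that pair with alpha v, the composition of this group differed. ITGB3 made up 0.617%, 0.557% and 0.736% of the summed level per kb of ITGB1, ITGB3, ITGB5, ITGB6 and ITGB8 in siGLI1 libraries, against 16.0%, 18.5% and 15.6% in siNT2 libraries. ITGB5 made up 43.9% ± 9.67 in siGLI1 and 30.6% ± 6.36 in siNT2 (SD, n = 3 each), with libraries that overlapped, and ITGB1 47.1% ± 7.71 and 47.3% ± 7.52. The summed level was 1769.5 ± 347 per kb in siGLI1 and 1478 ± 308 in siNT2 (SD, n = 3 each), which overlapped. With median transcript lengths the ITGB3 share was 0.264% ± 0.0396 in siGLI1 and 7.45% ± 0.878 in siNT2. Shares sum to a whole, so a lower ITGB3 by itself raises the others.

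**Figure D4:**
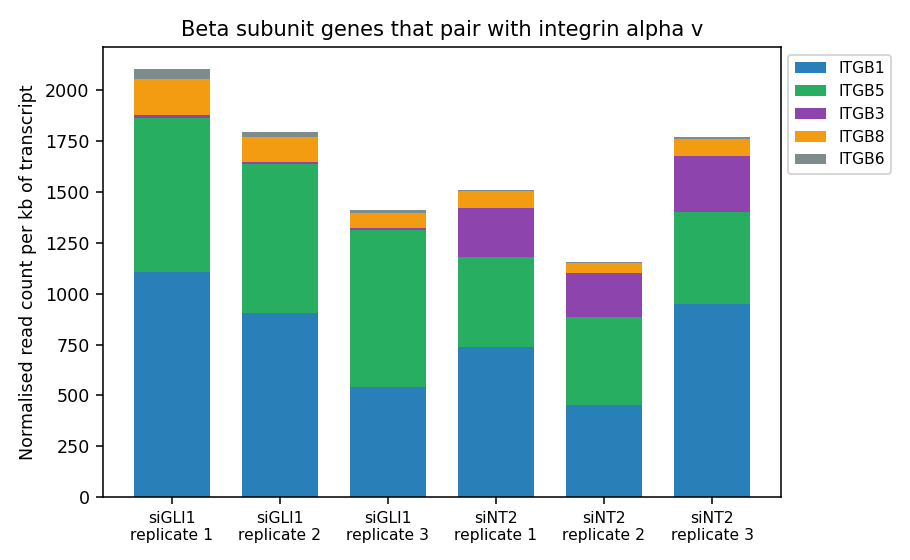
Normalised read count per kb of the longest transcript (y axis) for 5 beta subunit genes whose products pair with alpha v, stacked for each siGLI1 library (left) and each siNT2 library (right). The purple ITGB3 segment takes 15.6% to 18.5% of the bar in siNT2 libraries and under 1 percent in siGLI1 libraries.

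Promoter windows from RefSeq (build GRCh38.p14, 250 bases before to 50 after a transcription start) were held for 6 of the 10 members, with 11 windows in all. ITGB3, ITGA3, ITGA7 and ITGA9 had no entry. The GLI consensus GACCACCCA, searched on both strands, matched 0 of the 11 windows and 0.236% of all 35116. Its inner core ACCACCC, which lies inside the consensus, matched 0 of the 11 and 4.77% of all.

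The genes with profiles most like ITGB3 were found by the root mean square difference of log2 values, set to the siNT2 mean, over the 6 libraries among 12658 genes with a mean of 50 or more. This measure mostly compares the size of the drop in siGLI1. Only genes lowered about as strongly, the siRNA target among them, could be near, so no shared regulation is read from it. Among the nearest were MMP15 (0.48), GLI1 (0.59), GRIN1 (0.67) and SLC16A3 (0.68). MMP15, the gene of a membrane-bound matrix metalloproteinase, had 16.2, 21.5 and 24.7 in siGLI1 libraries and 497, 776 and 467 in siNT2 libraries. Of these 4, MMP15 carried the heptamer in its 3′ UTR and the others did not.

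Of the 16 other integrin subunit genes, 13 were tested, 2 were called higher and 2 lower, which is 30.8% against 15.2% of all genes, with a median log2 difference of 0.17. ITGB2, the beta subunit of leukocyte integrins, had 213, 287 and 351 in siGLI1 libraries and 1448, 1660.3 and 1376 in siNT2 libraries, far apart, and fell by 2.42 on the log2 scale (adjusted p = 0.000656, limma). ITGB7, its relative on lymphocytes, fell by 0.82 to a siGLI1 mean of 22.0 ± 1.67, against 39.5 ± 2.05 in siNT2 (SD, n = 3 each; adjusted p = 0.0352, limma), a call lost in each fit that left out 1 library. ITGB6, an alpha v partner known from epithelia, had 232, 121 and 78.0 in siGLI1 libraries and 35.1, 15.2 and 44.7 in siNT2 libraries (log2 difference 2.13, adjusted p = 0.027, limma). ITGAM, the alpha M subunit of myeloid cells, rose by 1.95 (adjusted p = 0.0189, limma), to 46.7 ± 22.2 in siGLI1 against 10.5 ± 2.59 in siNT2 (SD, n = 3 each). The calls of ITGB6 and ITGAM were lost without siNT2 replicate 1 or without siGLI1 replicate 2, which left no subunit of this list called higher. Of the leukocyte and osteoclast markers, PTPRC and CD3E were at 3.95 or less in siGLI1 libraries and 2.39 or less in siNT2 libraries, while CD68 had 49.99 ± 14.6 in siGLI1 and 54.4 ± 20.9 in siNT2, CSF1R 24.1 ± 6.05 and 20.3 ± 3.32, and CALCR 46.4 ± 14.8 and 27.2 ± 10.7 (SD, n = 3 each). These 3 were not called, and the part of such cells in the ITGB2 and ITGAM values was not tested. ITGB8, the other alpha v partner, had 1549.7, 1062 and 637 in siGLI1 libraries and 742, 451 and 737 in siNT2 libraries, which overlapped (log2 difference 0.69, adjusted p = 0.205, limma).

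Among ligands, genes of 2 mineralised-matrix proteins and of a laminin beta chain were higher in siGLI1 libraries. Of 41 ligand genes 28 were tested, 9 were called higher and 2 lower, which is 39.3% against 15.2% of all genes, and the median log2 difference was 0.26. DMP1, an Arg-Gly-Asp protein of bone and dentin, had 234, 259.7 and 162 in siGLI1 libraries and 7.69, 9.13 and 6.38 in siNT2 libraries (log2 difference 4.64, adjusted p = 0.000277, limma). DSPP, the gene of another dentin matrix protein, had 40.0, 16.4 and 24.7 in siGLI1 libraries and 1.10, 3.04 and 3.19 in siNT2 libraries (log2 difference 3.00, adjusted p = 0.0054, limma). LAMB3, the gene of a laminin beta chain, had 766, 904 and 1205 in siGLI1 libraries and 286, 375 and 231 in siNT2 libraries, well apart (log2 difference 1.69, adjusted p = 0.00439, limma). The siNT2 mean of DSPP was close to the floor of 3 reads, and with a pseudocount of 8 in place of 1 its log2 difference shrank to 1.70.

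The elastic fibre ligand FBLN5 rose by 1.27 (adjusted p = 0.00127, limma) and the alpha 9 ligand TNC by 1.13 (adjusted p = 0.0108, limma), whereas the laminin chain genes LAMB1 and LAMA4 fell by 0.68 and 0.75 (adjusted p = 0.00825 and 0.0148, limma). A further 3 calls, named after their values were seen, were higher values for CCN1 (0.79), LAMC1 (0.93) and LAMA5 (1.18), each lost without at least 4 of the 6 libraries in turn. Fibronectin and vitronectin, the main ligands of alpha 5 and alpha v, were not called. FN1 had 5773, 4947 and 4401 in siGLI1 libraries and 3629, 2922 and 5781 in siNT2 libraries (log2 difference 0.35, adjusted p = 0.381, limma), and VTN averaged 31.9 ± 4.61 in siGLI1 and 24.3 ± 4.71 in siNT2 (SD, n = 3 each; adjusted p = 0.324, limma). SPP1, which encodes osteopontin, had 3.24, 7.16 and 7.90 in siGLI1 libraries and 0, 1.01 and 2.39 in siNT2 libraries and was too low to test. IBSP, which encodes bone sialoprotein and is named after its values were seen, was also too low to test and ran the other way, with 0 in all 3 siGLI1 libraries and 1.10, 3.04 and 3.19 in siNT2 libraries. Without siNT2 replicate 1 or siGLI1 replicate 2 the ligand calls were 5 higher and 0 lower, and the calls of TNC, LAMB1 and LAMA4 were among those lost. LAMA4 was also lost without siNT2 replicate 3, which left 1 lower, while leaving out siGLI1 replicate 3 gave 3 lower.

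Genes of the cytoplasmic plaque were called at about the background rate without a GC correction. Of 48 listed, 44 were tested, 4 were called higher and 3 lower, 15.9% against 15.2% of all genes, and the median was 0.12. After the GC correction 14 of the 44 were called higher and 6 lower, against 2426 and 2338 of the 14438 genes with a GC content. In that fit the share called higher was above that over all genes, and the share called lower was below it. ACTN1, which encodes an actin-bundling alpha-actinin that binds beta tails, had 1769, 1632 and 1761 in siGLI1 libraries and 3698, 3962 and 4151 in siNT2 libraries, well apart (log2 difference -1.19, adjusted p = 0.00127, limma). GIT1, a scaffold that binds paxillin, fell by 1.11 (adjusted p = 0.0146, limma) and TGFB1I1, a paxillin relative, by 1.05 (adjusted p = 0.0353, limma). CASS4, of the Cas family of adhesion scaffolds, had 129, 124 and 94.8 in siGLI1 libraries and 11, 14.2 and 25.5 in siNT2 libraries (log2 difference 2.77, adjusted p = 0.00224, limma). The kindlin gene FERMT2 rose by 0.70 (adjusted p = 0.046, limma), the zyxin gene ZYX by 0.67 (adjusted p = 0.0277, limma) and the tensin gene TNS3 by 0.56 (adjusted p = 0.028, limma). The calls of ACTN1 and CASS4 held in all 6 fits that left out 1 library, that of GIT1 failed when siNT2 replicate 1 or siGLI1 replicate 2 was left out, and those of TGFB1I1, FERMT2, ZYX and TNS3 in 4 or 5 of the 6. Without siNT2 replicate 1 or siGLI1 replicate 2 the list had 1 higher and 1 lower, and without siNT2 replicate 2, siNT2 replicate 3 or siGLI1 replicate 1 it had 2 and 2. The talin gene TLN1 averaged 6059 ± 1212 in siGLI1 and 5228 ± 929 in siNT2 (SD, n = 3 each; log2 difference 0.21, adjusted p = 0.491, limma), and was called higher after the GC correction. The integrin-linked kinase gene ILK had a log2 difference of -0.30 (adjusted p = 0.165, limma).

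Syndecans, which act beside integrins in adhesion, showed the largest changes among the lateral partners. Of 19 genes 18 were tested, 3 were called higher and 2 lower, which is 27.8% against 15.2% of all genes, with a median of -0.07. SDC4, the syndecan of focal adhesions, had 227, 212 and 208 in siGLI1 libraries and 1059.7, 1059 and 999.98 in siNT2 libraries, 2 narrow groups far apart (log2 difference -2.26, adjusted p = 0.000277, limma). SDC1 had 450.3, 517 and 692 in siGLI1 libraries and 1935, 2648 and 1892 in siNT2 libraries (log2 difference -1.97, adjusted p = 0.00162, limma). The caveolin gene CAV1 rose by 0.94 (adjusted p = 0.0106, limma) and the tetraspanin genes CD63 and CD82 by 0.89 and 0.67 (adjusted p = 0.0163 and 0.0328, limma). These 3 calls were all lost without siNT2 replicate 1 or without siGLI1 replicate 2, which left 0 higher, and those of CD63 and CD82 also without siNT2 replicate 3.

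Over the members and the 4 lists, 12 genes carried the heptamer in the 3′ UTR and 9 of these were tested. The called ones were ITGB3, SDC4, ACTN1 and GIT1, all lower. Over all 1163 tested genes with the heptamer, 18.5% were called lower and 6.19% higher, against 7.09% and 8.27% of those without it. ITGB3 and the heptamer were both picked with these values known, so nothing is read from the count in these lists. ILK, THBS2, PTK2, PARVA and TNS1 carried it without a call, with log2 differences of -0.30, -0.22, -0.36, 0.02 and 0.39. TNS1 had 2 copies, as did SDC4. ITGB2, ITGB7, LAMB1, LAMA4, TGFB1I1 and SDC1 were called lower without carrying it.

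**Figure D5:**
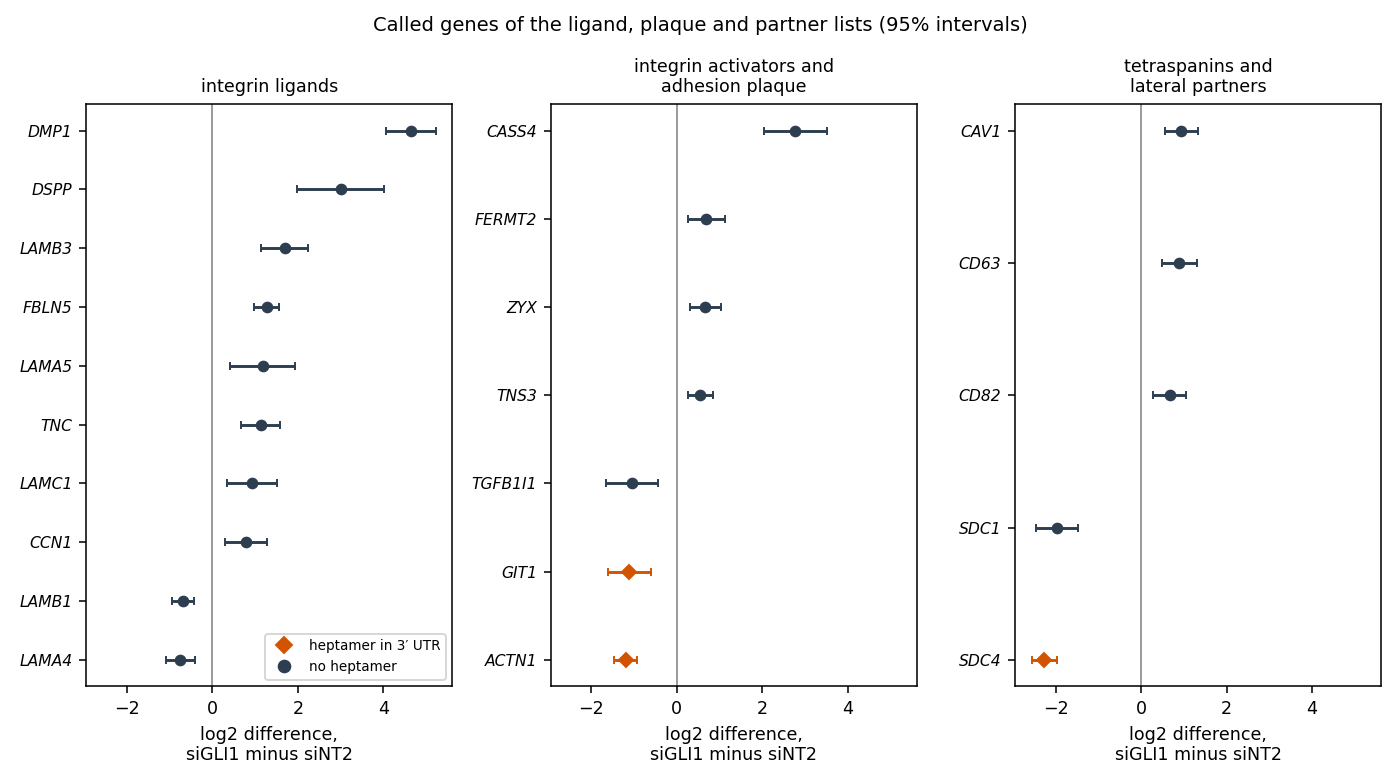
Log2 difference, siGLI1 minus siNT2, with 95% intervals (x axis) for called genes of the ligand, plaque and lateral partner lists; orange diamonds carry GCACCTC in the 3′ UTR and dark circles do not. The diamonds are SDC4 at -2.26, ACTN1 at -1.19 and GIT1 at -1.11.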

How the data were processed

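RNA was sequenced from 3 siGLI1 and 3 siNT2 libraries. Per the submitters' processing notes, the build was hg19 and the tools included DESeq2 2.11.40.6, Subread 1.6.4 with featureCounts, Bowtie2 2.3.3.1 and Trim Galore 0.4.5, besides bcl2fastq. The sources used here do not give the strand setting, the annotation or the treatment of multiply mapped reads, and reads spanning exon junctions can be lost with Bowtie2. The authors deposited signal values, reads per gene divided by a size factor per library. All values (100%) were whole multiples of 1 read within 0.01 reads, so whole reads were recovered; 3 reads are worth 2.39 to 3.29, a floor that covers counting error only.

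Symbols came from RefSeq (GRCh38.p14) for 23696 of 25702 Entrez numbers, and transcript length, GC content and 3′ UTRs from GENCODE 29. The build differs from hg19, so no hg19 coordinates are printed. The 3′ UTR was that of the principal coding transcript.

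limma 3.58.1 (trend, two-sided, R 4.3.3) was fitted to log2(value + 1) over all genes with a mean of 10 or more, with group as the only term. Alternatives were edgeR 4.0.16 and DESeq2 1.42.0 on the recovered reads, other pseudocounts and filters, quantile normalisation, a GC correction, a replicate block and leaving out each library. The code was tested on simulated counts, drawn independently per library and without a trend along GC content. That test therefore does not cover the spread between the libraries here. No 2 libraries of a group agreed within sampling noise. Members, gene lists and the heptamer were chosen with earlier results of these data known. Named genes were the members, 6 fixed genes and up to 8 called genes with the smallest p-values per list. A few genes that this rule or the marker lists would name are not reported here, though counts, medians and sums include them.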

Additional observations from a re-analysis of the deposited data

How the results depend on the processing

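Leaving out 1 library gave 283 to 1562 genes called higher and 358 to 1705 lower over all genes, and 1 to 4 members called higher with 1 lower. For the other lists the ranges, higher then lower, were 0 to 3 and 1 to 1 for the other subunits, 5 to 9 and 0 to 3 for ligands, 1 to 4 and 1 to 4 for the plaque, and 0 to 3 and 2 to 2 for lateral partners. Signs turned for 3 uncalled members, ITGAV (-0.048 to 0.56), ITGB1 (-0.044 to 0.55) and ITGA5 (-0.27 to 0.021). PARVA, named for its heptamer, ranged from -0.090 to 0.13.

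After correction for GC content there were 2426 higher and 2338 lower among the 14438 genes with a GC content. Higher then lower, there were 4 and 1 for the other subunits and 14 and 6 for the plaque, besides 5 lower for ligands and 5 higher for lateral partners. List counts not named for this correction stayed near those of the main fit. Ligands called higher still outnumbered those called lower. With the replicate block as well, the counts were 1902 higher over all genes, 1 lower for the other subunits, 11 higher for the plaque and 5 higher for lateral partners. The replicate block alone gave 462 higher and 508 lower over all genes, 1 member higher, 1 other subunit lower, 0 ligands lower, 1 and 1 plaque genes and 0 lateral partners higher. The labels do not say what the shared code stems mark. Deviations from the group means did not follow the replicate numbers, with same-number correlations of deviations of 0.49, -0.11 and -0.61, and siGLI1 replicate 1 correlated best with siNT2 replicate 3 (0.57). These deviations were not corrected for GC content, along which the libraries differed, so the correlations cannot show whether libraries with the same number were paired. A minimum mean of 50 left 1 and 1 other subunits and 5 ligands higher, since fewer genes were tested. ITGB7 was the lower subunit lost with no filter, DESeq2, the replicate block or the GC correction, each of which left 1. The order of levels per length kept 4 of 10 places with median transcript lengths. For the other losses and gains the cause was not tested. Differences in low genes such as ITGA9 were not detectable at this depth.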
